A study of Mus musculus with 3 samples.

Results

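The 4 Notch receptor genes of the mouse, the nuclear cofactor genes Rbpj and Maml1, the target genes Hes1, Dtx1 and Nrarp and the glycosyltransferase gene Lfng were examined in thymocytes, the T cells that develop in the thymus, of wild-type mice. These 10 genes were found by symbol among 19938 genes that the array's annotation names singly, through 11 probe sets, and the 2 probe sets of Rbpj were averaged. RNA came from 3 wild-type mice of mixed FVB and C57BL6 background, numbered 92, 103 and 106, and was hybridised to Affymetrix MoGene 1.0 ST arrays. They are the normal group of a study of stage 3 invasive lymphomas in mice that its title calls tPTEN-/-, and the lymphomas were not analysed here. The labels of these mice name no transgene, deletion or treatment, and none states their age or sex. For each sample the labels record an RNA integrity number of 3, which is low, and 0.3 µg of RNA, and the disease state entry reads lymphoma although title and genotype read wild type. With 1 group, no treatment or genotype could be compared, and the comparison made was that between the mice. The number of arrays, 3, limits every value.

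Notch receptors are cell surface proteins that act as their own transcription factors. A Delta-like or Jagged ligand on a neighbouring cell pulls on the receptor, an ADAM protease and then the gamma-secretase complex cut it, and the freed intracellular part enters the nucleus, binds RBPJ on DNA and recruits a Mastermind protein. In the thymus, Delta-like 4 on epithelial cells drives incoming progenitors into the T lineage through Notch1, the signal is needed up to beta-selection at the end of the double-negative stage, and it is low in the double-positive cells that make up most thymocytes. Notch1 is also a frequently mutated oncogene of T cell leukaemia.

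Levels are the deposited log2 values. A gene was counted above background where it exceeded the 95th percentile of 1207 olfactory, vomeronasal and trace amine receptor genes on the same array, which lay at 5.91, 6.10 and 6.002 in mice 92, 103 and 106. All 10 genes passed on each of the 3 arrays, where 61.8% of all named genes did. Probes differ in affinity, so the level of 1 gene was not set against that of another. The array medians, 6.70, 6.71 and 6.72 in the same order of mice, lay close together. The thymocyte markers were present: 8 of 8 measured marker genes, among them Cd3e, Cd4 and Cd8a, passed on all arrays, with mean levels of 12.26, 12.20 and 12.20.

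**Figure D1:**
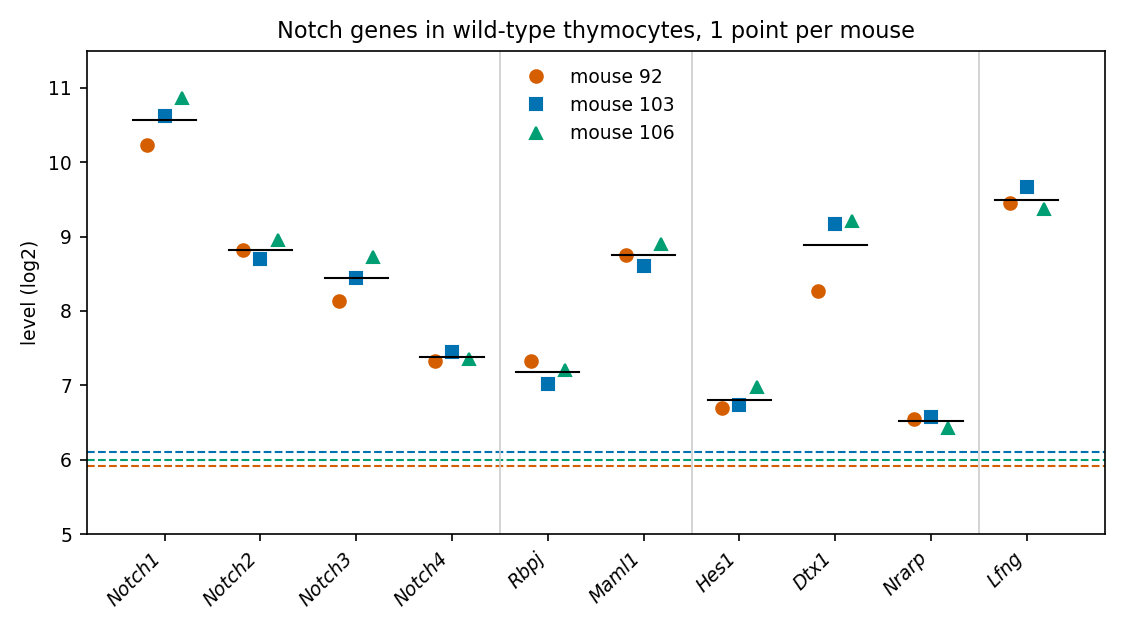
Log2 level of the 10 Notch genes in thymocytes of 3 wild-type mice, with 1 point per mouse, a black line at the mean, and a dashed line at each array's background threshold in the colour of its mouse. Every point lies above its threshold, those of Nrarp by 0.42 to 0.64, and mouse 92 lies apart from the others at Dtx1.

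Among the receptors, Notch1 and Notch3 were lowest in mouse 92 and highest in mouse 106, whereas Notch2 had a range near the median of all tested genes, 0.25, and Notch4 a smaller one. Notch1, the receptor of T cell commitment, had levels of 10.23, 10.63 and 10.87 in mice 92, 103 and 106 (mean 10.57 ± 0.32 SD, n = 3). Mouse 92 stood below the others, and the difference between mice 106 and 92 was 0.64, a ratio of 1.56-fold. Notch3, itself a target gene of Notch1 signalling in T lineage cells, had levels of 8.14, 8.45 and 8.73 in the same order (8.44 ± 0.29 SD, n = 3). Its 3 mice stood in the order seen for Notch1, with 1.50-fold between mice 106 and 92. The Euclidean distance between the deviations of Notch1 and Notch3 from their means was 0.06 over the 3 mice.

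Notch2, the receptor that marginal zone B cells require, had levels of 8.82, 8.70 and 8.96 (8.83 ± 0.13 SD, n = 3). Its lowest mouse was 103, and the range was 0.26. Notch4, best known from blood vessel endothelium, was at 7.32, 7.45 and 7.36 (7.38 ± 0.06 SD, n = 3), and its range of 0.12 was the smallest of the 10 genes. Endothelial and fibroblast markers passed the background threshold in 4 of 7 cases, with mean levels of 6.94, 7.04 and 6.96. Those that passed were Pecam1 (mean of the 3 mice 9.65) and the collagen genes Col1a1 (7.40), Col1a2 (7.13) and Col3a1 (7.09). Cdh5, Kdr and Pdgfra did not pass on all arrays. The part of such cells in the Notch4 level was not tested.

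The cofactor genes had ranges of 0.32 for Rbpj and 0.30 for Maml1, beside a median of 0.25 over all tested genes. Rbpj encodes the DNA-binding protein of the pathway and had averaged levels of 7.33, 7.01 and 7.20 (7.18 ± 0.16 SD, n = 3), with mouse 103 lowest. This average joins 2 probe sets that disagree in level. The probe set annotated with 6 RefSeq transcripts read 8.99, 8.72 and 8.84, above background on 3 arrays. The other, annotated with 1 sequence and no RefSeq transcript, read 5.66, 5.31 and 5.57 and was above background on 0 arrays. Mouse 103 was the lowest and mouse 92 the highest in either probe set, by 0.28 in the former and 0.35 in the latter. Maml1, a Mastermind coactivator that holds the receptor fragment and RBPJ together, was at 8.75, 8.60 and 8.91 (8.75 ± 0.15 SD, n = 3). Its mice stood in the order of Notch2, and the distance between the deviations of these genes was 0.03, the smallest among the 45 pairs of members.

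Of the target genes, Dtx1 alone had a wide range, while Hes1 and Nrarp lay near background. Dtx1, which encodes the ubiquitin ligase Deltex 1, had levels of 8.26, 9.17 and 9.22 in mice 92, 103 and 106 (8.88 ± 0.54 SD, n = 3). Mice 103 and 106 lay 0.05 apart and mouse 92 lay 0.90 and 0.95 below them, ratios of 1.87-fold and 1.93-fold. In RNA of a whole cell population, fewer cells of a type and less RNA per cell cannot be told apart.

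Hes1, a repressor of the basic helix-loop-helix family and the classical Notch target, was at 6.70, 6.73 and 6.97 (6.80 ± 0.15 SD, n = 3). It lay 0.63 to 0.97 above the threshold, with mouse 106 highest. Nrarp, a small ankyrin repeat protein that is induced by Notch and limits its signal, was at 6.55, 6.57 and 6.43 (6.52 ± 0.08 SD, n = 3), 0.42 to 0.64 above the threshold. Neither gene passed on all arrays with a stricter threshold, the 99th percentile of olfactory and related genes, so their ranges of 0.28 and 0.15 were read near the floor of the arrays. Lfng, the Fringe enzyme that extends sugars on Notch and raises its response to Delta-like ligands, was at 9.46, 9.67 and 9.37 (9.50 ± 0.15 SD, n = 3). It was highest in mouse 103, which was the lowest mouse for Notch2, Rbpj and Maml1.

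The promoters of the 3 members with the widest ranges, Notch1, Notch3 and Dtx1, are shown with that of Lfng, whose promoter holds an RBPJ motif. The sequences, credited to RefSeq with build GRCm38.p6, are the 250 bases before the gene start, 5′ to 3′ on the gene's strand. They lie at chr2:26503823-26504072 (minus strand) for Notch1, chr17:32166891-32167140 (minus strand) for Notch3, chr5:120711670-120711919 (minus strand) for Dtx1 and chr5:140607091-140607340 (plus strand) for Lfng. Capitals mark GGGCGG, the GC box of SP family factors, on either strand in the first 3, and CGTGGGAA, the RBPJ motif, in Lfng.
Notch1: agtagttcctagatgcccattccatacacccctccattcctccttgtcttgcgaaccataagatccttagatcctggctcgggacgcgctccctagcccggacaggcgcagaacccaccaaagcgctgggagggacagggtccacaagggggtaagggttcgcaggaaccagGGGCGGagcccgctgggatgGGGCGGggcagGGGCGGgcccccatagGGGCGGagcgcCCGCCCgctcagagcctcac
Notch3: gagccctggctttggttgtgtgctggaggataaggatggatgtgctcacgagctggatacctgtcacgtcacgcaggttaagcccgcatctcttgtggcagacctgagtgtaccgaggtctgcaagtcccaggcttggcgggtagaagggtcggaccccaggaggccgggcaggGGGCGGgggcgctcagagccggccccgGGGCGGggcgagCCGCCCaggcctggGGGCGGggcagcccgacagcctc
Dtx1: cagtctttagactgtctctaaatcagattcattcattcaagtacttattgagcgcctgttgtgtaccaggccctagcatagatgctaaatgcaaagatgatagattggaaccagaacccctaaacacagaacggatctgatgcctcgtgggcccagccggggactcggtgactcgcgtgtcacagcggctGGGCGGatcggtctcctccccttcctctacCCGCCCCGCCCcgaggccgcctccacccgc
Lfng: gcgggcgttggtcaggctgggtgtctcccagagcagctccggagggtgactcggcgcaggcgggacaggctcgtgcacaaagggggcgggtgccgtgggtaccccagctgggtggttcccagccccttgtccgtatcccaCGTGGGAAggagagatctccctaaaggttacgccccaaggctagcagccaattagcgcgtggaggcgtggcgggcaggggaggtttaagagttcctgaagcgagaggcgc
RefSeq promoters were matched for 9 of the 10 genes, all but Hes1, which was not searched, with 10 windows since Rbpj has 2 starts. Searched on both strands, GTGGGAA, the core that RBPJ reads, was found in 1 of the 9 genes, Lfng, 102 bases before the start, and in 5.42% of 32851 promoters of the same length. The match extends to CGTGGGAA, which contains that core and was found in 0.636% of promoters. GGGCGG was found in 7 of the 9 genes and in 32.7% of all promoters. There were 5 matches in Notch1, 4 in Notch3 and 3 in Dtx1, of which the last pair shares 1 base. Notch2, with a range of 0.26, held 5 as well, Nrarp and Maml1 held 2 each, and Lfng held 1. The windows of Notch1, Notch3 and Dtx1 held no GTGGGAA, which says only that these letters are not in these windows.

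Whether any of the 10 genes varied between mice beyond genes of like level was tested with limma, as each gene's variance over a prior variance that follows level. The test covered the 13314 genes that passed the background threshold on 1 or more arrays. Of these, 30, or 0.225%, varied at an adjusted p under 0.05, and 0 of the 10 Notch genes did. At an unadjusted p under 0.05 there were 2 of the 10, Dtx1 and Notch1, against 4.84% of all tested genes. A robust prior called 44 genes, 0.33%, and again 0 of the 10. A gene that missed the threshold is not shown to be equal in the 3 mice. The test had little reach with 3 arrays. A range of 1.32, at the B cell gene Cd79a, was not called (adjusted p = 0.0652, limma), though a robust prior called it. No member had so wide a range. No member spanned a range of at least 1 on the log2 scale, that is 2-fold, where 0.751% of tested genes did. After quantile normalization the range of Dtx1 was 1.01, and after cyclic loess 1.01.

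Dtx1 had the smallest p of the members (adjusted p = 0.265, limma), and its variance ratio exceeded that of 99.5% of tested genes. The spread of Dtx1 is that of 1 mouse: without mouse 92 its SD was 0.03 (adjusted p = 0.998, limma). Without mouse 106 the SD was 0.64, and limma then called Dtx1 (adjusted p = 0.0251), and without mouse 103 it was 0.67 (adjusted p = 0.0871). Over its 11 alternatives the adjusted p ran from 0.0251 to 0.998. Notch1 stood above 96.9% of tested genes in variance ratio (adjusted p = 0.87, limma) and Notch3 above 94.7% (adjusted p = 0.996, limma). The other 7 members stood between 14.7% and 64.7%.

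**Figure D2:**
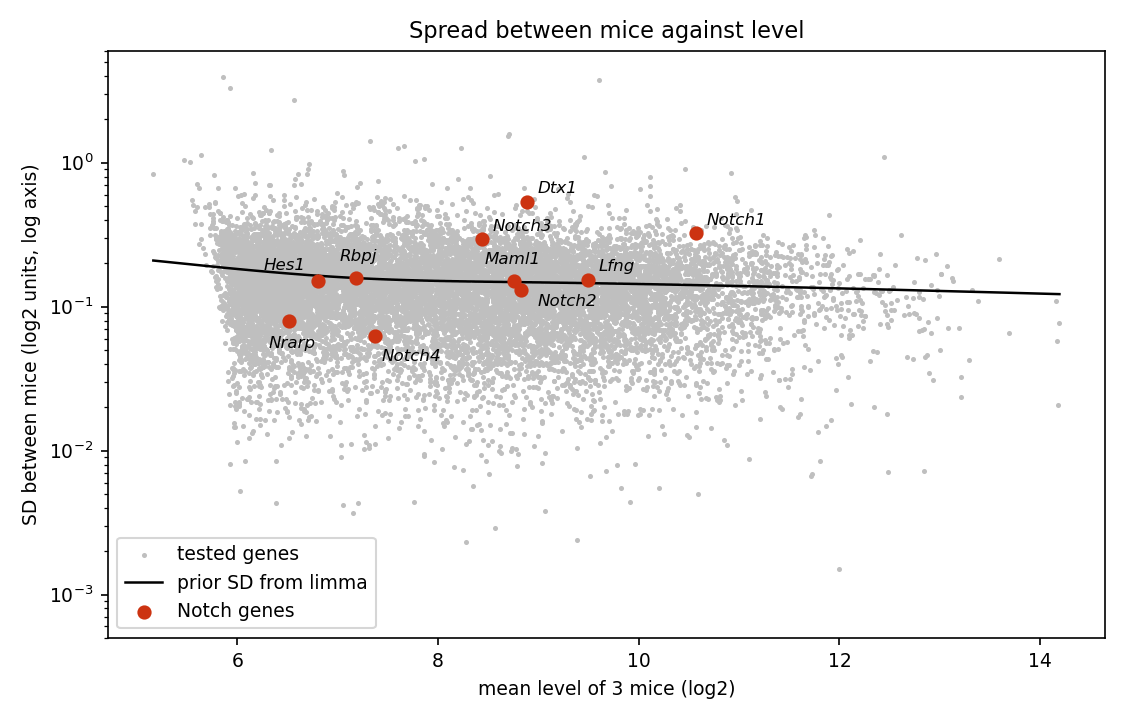
SD between the 3 mice (log axis) against mean log2 level for the 13314 tested genes in grey and the 10 Notch genes in red, with the prior SD that limma fitted as a black line. Dtx1, Notch1 and Notch3 lie above the line, with SDs of 0.54, 0.32 and 0.29, and the other 7 lie on or below it or just above it, between 0.06 and 0.16.

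The members did not deviate in a common pattern. Mouse 92 was the lowest for 5 of the 10, Notch1, Notch3, Notch4, Hes1 and Dtx1, where 35.1% of tested genes were lowest in that mouse. Mouse 106 was the highest for 6, Notch1, Notch2, Notch3, Maml1, Hes1 and Dtx1, where 23.5% of tested genes were highest there. Notch2, Rbpj and Maml1 were lowest in mouse 103, beside 28.3% of tested genes, and Nrarp and Lfng in mouse 106, beside 36.6%. Rbpj alone was highest in mouse 92, beside 37.4% of tested genes, and Notch4, Nrarp and Lfng were highest in mouse 103, beside 39.1%. The order turned after cyclic loess at Hes1, where mouse 103 was then lowest, and at Nrarp, where mouse 92 was then highest, so that Rbpj was no longer alone in that. Notch1, Notch3 and Dtx1 kept mouse 92 lowest and mouse 106 highest after quantile normalization, median centring and cyclic loess. Notch2, Notch4, Rbpj, Maml1 and Lfng also kept their lowest and highest mouse under these scalings. The median SD of the 10 genes was 0.15 and their median range 0.30, beside 0.13 and 0.25 over all tested genes.

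**Figure D3:**
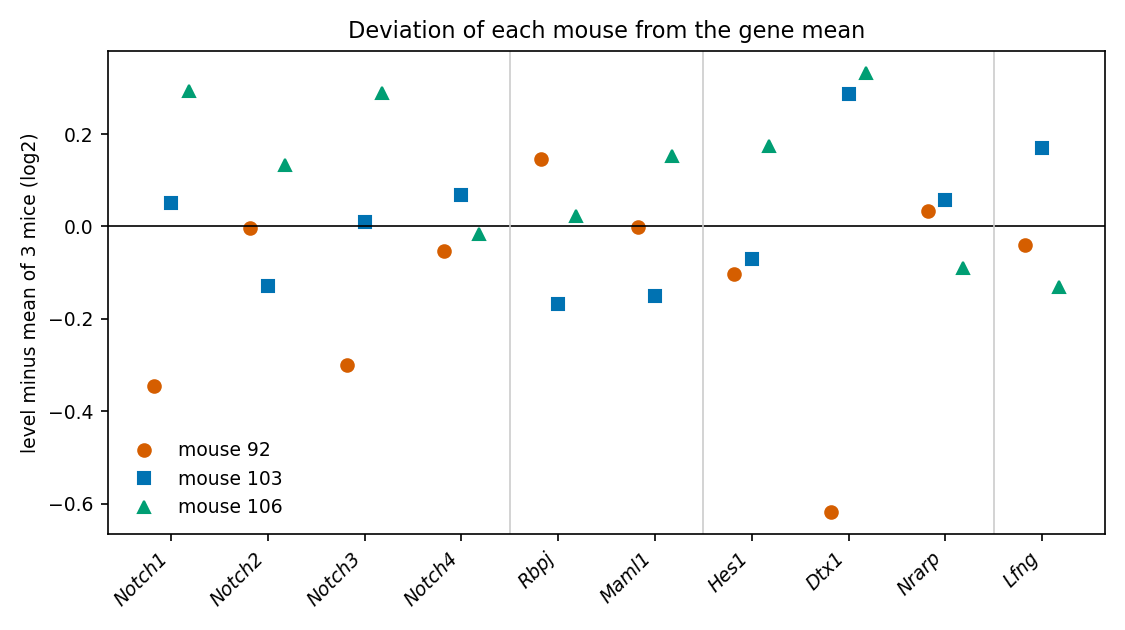
Deviation of each mouse from the mean of the 3 mice (log2) for the 10 Notch genes, with 1 point per mouse and grey lines between receptors, cofactors, targets and Lfng. Mouse 92 is the lowest point at Notch1, Notch3 and Dtx1 and the highest at Rbpj.

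The rest of the pathway was read from a list of 67 other genes, of which 63 were measured and 57, or 90.5%, were above background on all arrays. By limma 0 of the 60 that were tested varied between mice, with a robust prior 0 as well, and 2, Il2ra and Tle1, had an unadjusted p under 0.05. The median range of the tested genes was 0.25, that of all tested genes.

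Most ligand genes, whose products act from neighbouring cells, lay at or near background. Dll4, the thymic Notch1 ligand, was at 6.25, 6.20 and 6.20 in mice 92, 103 and 106. Jag2 was at 6.64, 7.01 and 6.62 and Dlk1, a ligand-like protein, at 7.08, 7.41 and 7.09. These 3 passed on all arrays, Dlk1 by 1.09 to 1.31, Jag2 by 0.61 to 0.91 and Dll4 by 0.10 to 0.33. Dll1 (mean 5.99 ± 0.03 SD, n = 3) and Jag1 (5.69, 6.28 and 6.07) passed on 2 arrays, and Dll3 (5.81, 6.04 and 5.90) on 0. Thymic epithelial markers, the cells that carry Dll4, passed in 5 of 8 cases with mean levels of 6.45, 6.73 and 6.55; Foxn1, Krt5 and Krt14 did not pass on all arrays.

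The receptor-cutting proteases passed in 8 of 8 cases. Their widest ranges were 0.37 for Psenen, 0.32 for Psen2 and 0.27 for the ADAM protease gene Adam10, which was at 10.69, 10.42 and 10.45. Psenen, a subunit of gamma-secretase, was at 11.57, 11.44 and 11.20, and Psen2, 1 of its catalytic presenilins, at 7.97, 8.22 and 7.90. The enzymes that put sugars on Notch passed in 5 of 5 cases and had the smallest median range of the roles, 0.16. Pofut1, which adds the fucose that Fringe enzymes extend, was at 8.68, 8.69 and 8.83, and Poglut1, which adds glucose, at 8.78, 8.70 and 8.56. The Fringe genes Mfng (8.81, 8.93 and 8.88) and Rfng (8.40, 8.33 and 8.48) and Eogt (7.47, 7.57 and 7.41), whose product adds N-acetylglucosamine, lay as close together, while the range of Lfng was 0.30.

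Ubiquitin and endocytic regulators passed in 13 of 13 cases, with the widest ranges at Cbl (0.36), Neurl1a (0.34) and Itch (0.30). Cbl and Itch, ubiquitin ligases of T cells, were at 11.96, 11.80 and 12.16 and at 10.27, 9.97 and 10.07. Among nuclear coactivators, 7 of 7 passed and 6 were highest in mouse 106, as Maml1 was, beside 23.5% of all tested genes. Of the 7, 0 had an unadjusted p under 0.05 (limma). The second Mastermind gene Maml2 was at 8.23, 8.35 and 8.66, and the acetyltransferase genes Ep300 and Crebbp at 10.45, 10.16 and 10.51 and at 11.34, 11.21 and 11.55. Corepressors passed in 10 of 11 cases, all but Fhl1 (mean 6.09 ± 0.12 SD, n = 3). Tle1, a Groucho corepressor that HES proteins recruit, was at 7.34, 6.59 and 6.92 (adjusted p = 0.863, limma), highest in mouse 92 and lowest in mouse 103. Spen, the scaffold of RBPJ repressor complexes, was at 10.86, 10.75 and 11.15 and Cir1 at 9.17, 8.81 and 8.83.

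The HES and HEY repressor genes were highest in mouse 103 in 5 of 6 cases, beside 39.1% of tested genes. The background threshold was also highest in that mouse, at 6.10. Hes1 was highest in mouse 106. Hes5 was at 7.78, 8.08 and 7.77, Hes6 at 9.18, 9.26 and 8.87 and Heyl at 6.43, 6.86 and 6.54. Hes7, with 7.57, 7.89 and 7.92, was the exception. Hey1 (5.50, 6.02 and 5.69) and Hey2 (4.33, 4.82 and 4.34), both counted among the 5, passed on 0 arrays. Of 7 genes known as Notch-responsive in thymocytes, all passed. In mouse 92, 5 were lowest, beside 35.1% of tested genes, and in mouse 106, 5 were highest, beside 23.5%. Il2ra, the CD25 marker of late double-negative cells, was at 7.77, 8.49 and 8.79, a range of 1.03 (8.35 ± 0.53 SD, n = 3; adjusted p = 0.291, limma). The cyclin gene Ccnd3 was at 11.79, 12.19 and 12.26 and the T lineage factor gene Gata3 at 10.64, 10.84 and 10.99, in the order of mice seen for Notch1 and Notch3.

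**Figure D4:**
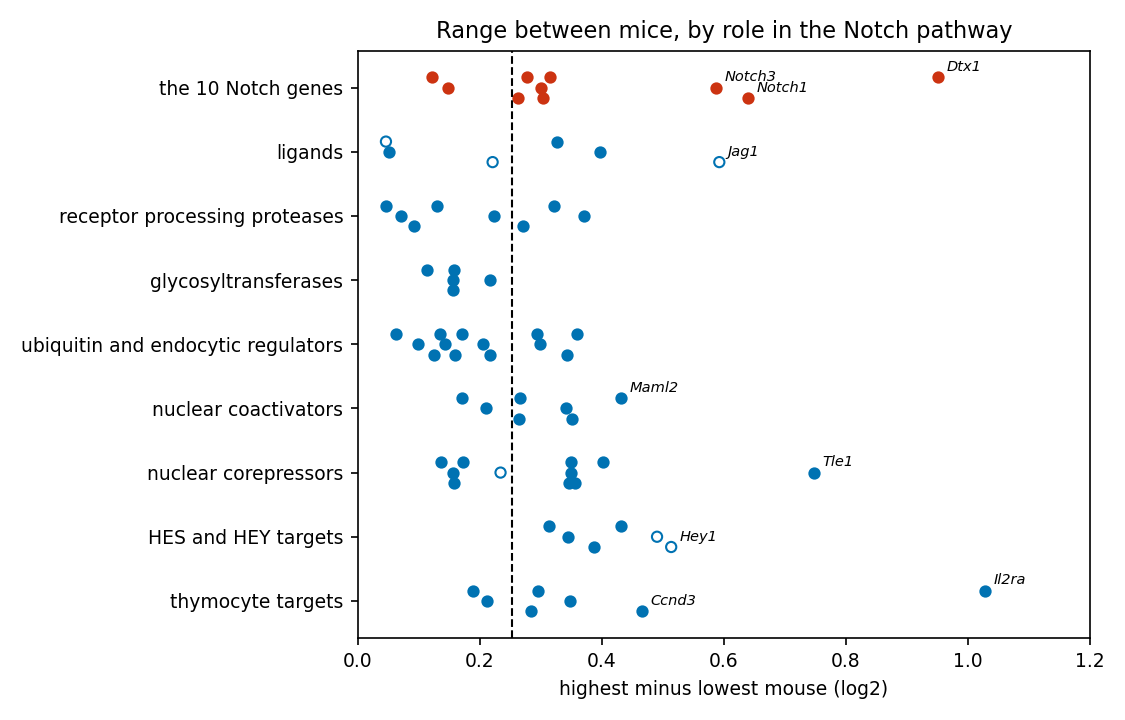
Highest minus lowest mouse (log2) for the 10 Notch genes in red and 63 other pathway genes in blue, by role, with open circles for genes not above background on all 3 arrays and a dashed line at the median of all tested genes, 0.25. Dtx1 (0.95) and Il2ra (1.03) lie farthest right.

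Some other measures of these samples moved with mouse 92 as well. Markers of double-negative cells and progenitors were lowest in mouse 92 in 9 of 11 cases, beside 35.1% of tested genes. Their mean levels were 7.10, 7.55 and 7.47, and Il2ra stands on that list too. Of the 11, 0 were called by limma under either prior and 4 had an unadjusted p under 0.05. Kit (6.80, 6.86 and 6.73) and Il7r (10.57, 10.45 and 10.15) were lowest in mouse 106, and Il7r was highest in mouse 92. Spi1 did not pass the background threshold on all arrays. Tal1 (7.06, 7.16 and 7.13), counted among the 9, had a range of 0.10. The part of other cells in the levels of these markers was not tested. Ptcra, on the thymocyte list, was at 7.99, 8.18 and 7.99. Double-positive markers were highest in mouse 92 in 8 of 9 cases, beside 37.4% of tested genes, with mean levels of 11.76, 11.42 and 11.47. Of the 9, 0 were called by limma under either prior and 3, Aqp11, Cd1d1 and Rag2, had an unadjusted p under 0.05. These had ranges of 1.06, 0.85 and 0.82, while Arpp21 (0.17), Tcf12 (0.18) and Satb1 (0.12) lay below the median range of all tested genes, 0.25. Cd1d1 (9.27, 9.47 and 8.61) was highest in mouse 103. Single-positive markers had mean levels of 10.25, 10.11 and 10.09. Of 8 measured, 4 were highest and 2 lowest in mouse 92, and limma called 0. The double-negative list deviated by -0.28 in mouse 92, where Notch1 deviated by -0.35, Notch3 by -0.30 and Dtx1 by -0.62.

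Markers of other blood cells were also mostly lowest in mouse 92, beside 35.1% of all tested genes. The background threshold was lowest in that mouse too (5.91, 6.10 and 6.002). B cell markers were lowest there in 9 of 9 cases, with mean levels of 6.51, 7.67 and 7.36, and Cr2, Bank1 and Fcer2a did not pass the background threshold on all arrays; limma called Cr2 (5.74, 7.32 and 7.01, adjusted p = 0.0483) and no other of the list, and with a robust prior 3. Dtx1 and Notch2 are transcribed in B cells as well. Neutrophil markers were lowest in mouse 92 in 8 of 8 cases (mean levels 6.53, 8.40 and 8.15), and 5 of the 8 were called by limma. Elane of that list passed on 2 arrays. Erythroid markers were lowest there in 4 of 4 (6.49, 7.79 and 7.28), with Epb42 above background on 0 arrays. Of these limma called 1, Alas2 (adjusted p = 0.0029). Macrophage and dendritic markers (7.61, 8.13 and 7.73) were lowest there in 5 of 9 cases, with 0 called by limma, 3 at an unadjusted p under 0.05 and 1, Lyz2, called with a robust prior (adjusted p = 0.0292). Those of gamma-delta T and NK cells (6.94, 7.59 and 7.24) were lowest there in 7 of 7, with Klrb1c and Ncr1 above background on 0 arrays. Of that list 0 were called by limma under either prior and 3 had an unadjusted p under 0.05. Xist, the RNA of the inactive X chromosome, read 5.30, 11.85 and 11.67, and the Y-linked Eif2s3y 10.42, 3.59 and 3.55. By these transcripts mouse 92 read as male and mice 103 and 106 as female, though no label states their sex. The part of these cells, of maturation stage and of sex in the levels of Notch1, Notch3 and Dtx1 was not tested, and with 1 array per mouse they cannot be told apart.

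**Figure D5:**
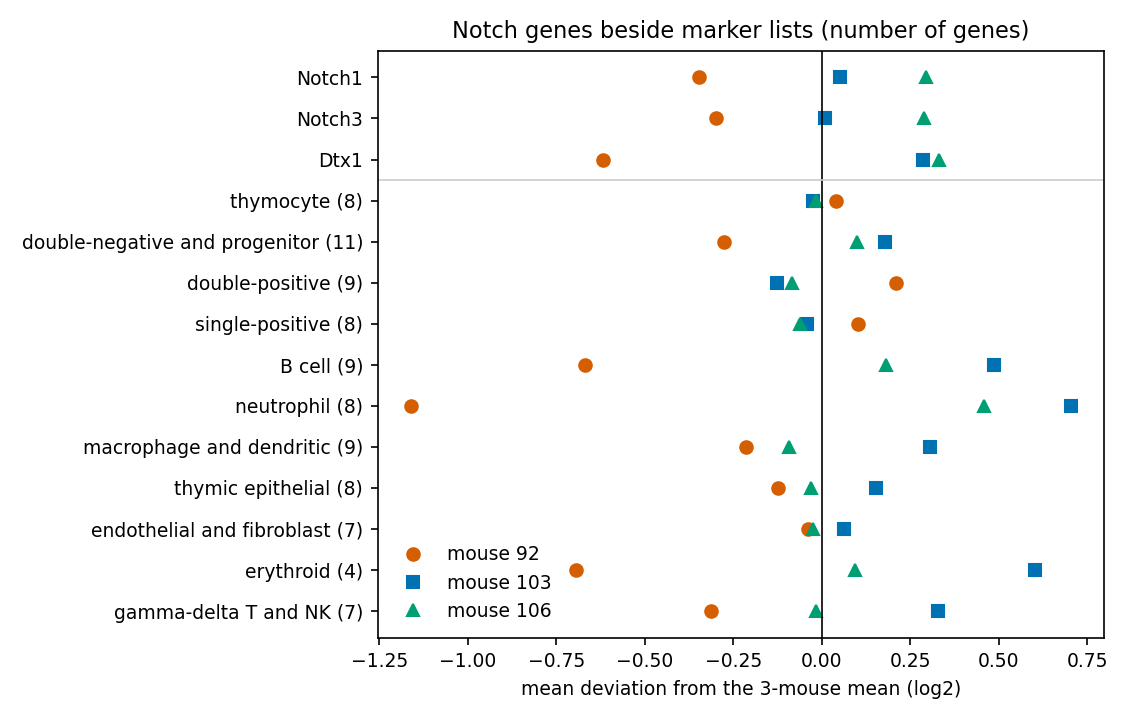
Deviation from the mean of the 3 mice (log2) for Notch1, Notch3 and Dtx1 and, below the line, the mean deviation of the genes of 11 marker lists, with the number of measured genes in parentheses and 1 point per mouse. Mouse 92 is lowest at the 3 Notch genes (-0.35, -0.30 and -0.62) and at the B cell (-0.67) and neutrophil (-1.16) lists, and highest at the double-positive list (0.21).

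Genes whose 3 deviations lay nearest to those of Dtx1 were sought among 12312 genes above background on all arrays. The nearest 5 were Fads2 (distance 0.03), a fatty acid desaturase gene, Inppl1 (0.06), which encodes the lipid phosphatase SHIP2, Itgam (0.08), the CD11b integrin chain of myeloid cells, Mid1 (0.10), a ubiquitin ligase gene on the X chromosome, and Cd74 (0.11), the invariant chain of MHC class II. Fads2 was at 7.61, 8.55 and 8.59 and Cd74 at 9.59, 10.38 and 10.39 in mice 92, 103 and 106. With 3 mice, likeness of this kind describes these arrays only.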

How the data were processed

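The deposited table holds log2 levels of 35557 probe sets on 3 arrays, from 1.76 to 14.96; the authors made them with Affymetrix Expression Console, per the submitters' processing notes. This range is the basis for reading them as log2. How background, summarisation and normalization were handled, and in which version, is not given in the sources used here. Platform annotation gave 21789 probe sets 1 symbol, 1621 several and 12147 none; probe sets of a gene were averaged.

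Variation was tested with limma 3.58.1 (R 4.3.3): an intercept, eBayes with a trend on level and no robust option, each gene's variance over its prior as an upper-tail F ratio, Benjamini-Hochberg over 13314 genes, checked on simulated data. The labels give each mouse a number and nothing more on sampling, so a p-value reflects only how these samples differ, which may be technical. Alternatives were a robust prior, no trend, other filters and thresholds, quantile, median and cyclic loess scaling, the highest probe set, and each mouse left out. Members and lists were chosen with earlier results of these data known. Named were all 10 members, every measured gene of pathway roles with at most 6, and in larger roles the 3 of widest range and those below background, and the 5 genes nearest to Dtx1.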

Additional observations from a re-analysis of the deposited data

How the results depend on the processing

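The count of 10 Notch genes above background became 8 with the threshold at the 99th percentile, and that of 57 other pathway genes 48; both stayed within 1.5 times under the alternatives run. The 30 varying genes became 18 after quantile normalization and 48 to 84 with 1 mouse left out (58 without mouse 92, 48 without mouse 103, 84 without mouse 106). The members called numbered 0 to 1 with 1 mouse left out, Dtx1 being called without mouse 106, and 0 under the other alternatives. Members spanning 2-fold numbered 1, Dtx1, after quantile normalization and 1 after cyclic loess. Members lowest in mouse 92 numbered 4 after cyclic loess and 7 without mouse 103 or 106. Scaling moved the median of tested genes by at most 0.04. No paired analysis was possible because there is 1 group. The cause of these changes was not tested. RNA integrity and 3 arrays limit all values, and Hes1, Nrarp and most ligand genes lie near the floor.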
